A study of Mus musculus with 34 samples.

Results

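The Krüppel-like factors described here are 10 genes of the mouse transcriptome, Klf2, Klf3, Klf4, Klf5, Klf6, Klf7, Klf9, Klf10, Klf13 and Klf15, followed in 3T3-L1 cells, a mouse preadipocyte line that turns into fat cells in culture. They were taken by gene symbol, as the 10 of 17515 RNA rows whose RefSeq transcript carries that symbol and as the peaks that the deposited tables annotate to them. Those peaks are 9 of 10702 H3K4me3 peaks, 148 of 87525 KDM5A peaks and 38 of 14827 KDM5C peaks. RNA and H3K4me3 ChIP were measured in shKdm5ABC cells, which received lentiviral short hairpin RNAs against Kdm5a, Kdm5b and Kdm5c together, and in shLuc control cells, which received a lentiviral hairpin against luciferase, each at day 0, 4 hours and day 2 with 2 replicates (12 libraries per assay). KDM5A ChIP covers the same times (6 libraries) and KDM5C ChIP covers day 2 (2 libraries), in cells for which no transduction is stated. Day 0 cells were post-confluent and uninduced, and the later cells had received dexamethasone, insulin, IBMX and serum. All cells are of a single line, and the transduced cells share polybrene and transduction 4 days before induction. The sample titles number the 2 replicates of a group as experiments 1 and 2. They do not say what the libraries of an experiment shared, or whether the experiments used separate cultures. Each p-value therefore measures only the spread between these libraries.

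Krüppel-like factors are zinc finger transcription factors that bind GC-rich and CACCC sequences in promoters, and the family is known for both sides of the switch from preadipocyte to fat cell. Klf4 activates Cebpb early in the program, Klf5 activates Pparg, Klf6 represses the preadipocyte gene Dlk1, Klf9 acts with C/EBPα on Pparg and Klf15 acts late, on genes such as Slc2a4, which encodes the glucose transporter GLUT4. Klf13 is known from pig preadipocytes to act on PPARγ. Klf2 and Klf3 restrain the program in mouse cells, and Klf7 restrains it in human preadipocytes. Klf10, known as an early gene induced by TGF-β, is placed on neither side here. KDM5 enzymes remove methyl groups from lysine 4 of histone H3, and trimethylation of that residue (H3K4me3) marks active promoters.

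The knockdown is visible in the RNA of its targets. Kdm5a stood at log2 levels of 6.77 to 7.17 over the 6 shKdm5ABC libraries and 7.73 to 8.03 over the 6 shLuc libraries. Kdm5a, Kdm5b and Kdm5c fell in shKdm5ABC cells at all 3 times, by 0.65 (Kdm5b, day 2) to 1.40 (Kdm5c, day 0) on the log2 scale (limma, adjusted p 0.0029 to 0.0216). The cells carried preadipocyte RNA, with summed marker levels of 31314 to 43012 normalized tags per kb at day 0 and 4 hours. Endothelial markers summed to 2.65 to 5.65 in every library, and the 6 macrophage markers to 28.5 to 111. Of those 6, Cd68, Csf1r and Lyz2 passed the filter on low values, and Adgre1 and Ptprc were at or below a log2 level of -4.55. In H3K4me3, the summed tags in peaks were 6559201 to 6809821 in the columns headed Control_D0, Control_D2 and KDM5_KD_4h, and 7880998 to 8322232 in those headed Control_4h, KDM5_KD_D0 and KDM5_KD_D2. That division follows neither the knockdown nor the time in the headers. Whether each column holds the group its header names was not tested, so H3K4me3 is given by header, and no direction of knockdown or time is drawn from it.

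RefSeq promoter sequences (GRCm38.p6, the 250 bases before the start) were matched for 8 of the 10 members, and Klf5 and Klf10 are named only. The 4 printed here are those that the chromatin results turn on: Klf9 has the highest H3K4me3 and KDM5A tags of the 10 genes, Klf4 the widest H3K4me3 peak, Klf2 the lowest H3K4me3 peak and Klf15 none. Capitals mark CCGCCC, read on both strands (GGGCGG on the other), the core of the GC box and the letters that the ARID domain of KDM5A is known to bind.
Klf9 (chr19:23140976-23141225, plus strand): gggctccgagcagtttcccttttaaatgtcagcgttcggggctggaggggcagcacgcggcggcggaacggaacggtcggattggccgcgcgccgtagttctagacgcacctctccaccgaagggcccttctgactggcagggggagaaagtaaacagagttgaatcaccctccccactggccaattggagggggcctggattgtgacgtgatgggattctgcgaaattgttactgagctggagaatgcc
Klf4 (chr4:55532476-55532725, minus strand): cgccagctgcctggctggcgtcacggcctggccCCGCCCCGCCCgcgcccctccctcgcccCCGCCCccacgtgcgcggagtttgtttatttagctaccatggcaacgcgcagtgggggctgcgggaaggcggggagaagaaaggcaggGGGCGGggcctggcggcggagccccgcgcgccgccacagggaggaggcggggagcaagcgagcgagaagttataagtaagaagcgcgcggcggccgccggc
Klf2 (chr8:72318812-72319061, plus strand): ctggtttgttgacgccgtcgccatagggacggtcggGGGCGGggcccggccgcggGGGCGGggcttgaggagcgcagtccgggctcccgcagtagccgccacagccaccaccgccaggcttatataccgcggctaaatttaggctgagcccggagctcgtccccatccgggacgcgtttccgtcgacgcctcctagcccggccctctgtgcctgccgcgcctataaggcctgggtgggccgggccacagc
Klf15 (chr6:90462326-90462575, plus strand): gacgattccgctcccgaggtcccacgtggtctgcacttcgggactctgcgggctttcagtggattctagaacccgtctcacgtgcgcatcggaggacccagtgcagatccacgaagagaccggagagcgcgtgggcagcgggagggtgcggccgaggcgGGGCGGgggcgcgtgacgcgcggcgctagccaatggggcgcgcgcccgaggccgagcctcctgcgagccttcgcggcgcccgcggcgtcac

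CCGCCC was found at 7 of the 8 promoters, and in 32.7% of the 32851 promoters of the same length. Klf3 held 6 matches, Klf4 held 4 (a pair of them overlapping) and Klf9 held 0. CACCC, the letters many Krüppel-like factors bind, read on both strands, was in 6 of the 8 and in 52.0% of all promoters. Of its 5 matches at Klf3 1 overlapped CCGCCC there. The letters TGACG, the core that cAMP-responsive factors bind, was in 5 of the 8 and in 17.8% of all, with 2 matches at Klf15. AGAACA, 1 side of a glucocorticoid response element, was in 0 of the 8 and in 16.1% of all, which says only that these letters are not in this window. Klf15 held 37 CpG in its 250 bases, more than 97.8% of promoters, Klf4 held 32 and Klf9 held 18, beside a median of 6.

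At day 0 the 10 genes spanned a wide range of RNA levels, on a scale divided by transcript length (log2 normalized tags per kb), so that levels can be compared between genes. In shLuc cells Klf6 (8.67 ± 0.16, SD, n = 2) and Klf3 (8.59 ± 0.12) were highest and overlapped each other. They exceeded 84.9% and 83.7% of the 13534 tested transcripts. Klf4, Klf9, Klf10 and Klf13 followed at means of 7.91 to 6.84, and Klf5, Klf7 and Klf2 at 5.79, 5.54 and 5.24, with neighbours in this order overlapping except for the step from Klf13 to Klf5. Klf15 was near the bottom, at 0.13 ± 0.07, where 0.517% of tested transcripts were lower. By 4 hours the order had changed, with Klf5 (9.23 ± 0.18) and Klf9 (9.17 ± 0.26) at the top in shLuc cells, above 88.6% and 88.1% of transcripts. At day 2 Klf9 led at 9.04 ± 0.20, and Klf5 (7.90 ± 0.13) and Klf3 (7.67 ± 0.05) came next without overlap.

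**Figure D1:**
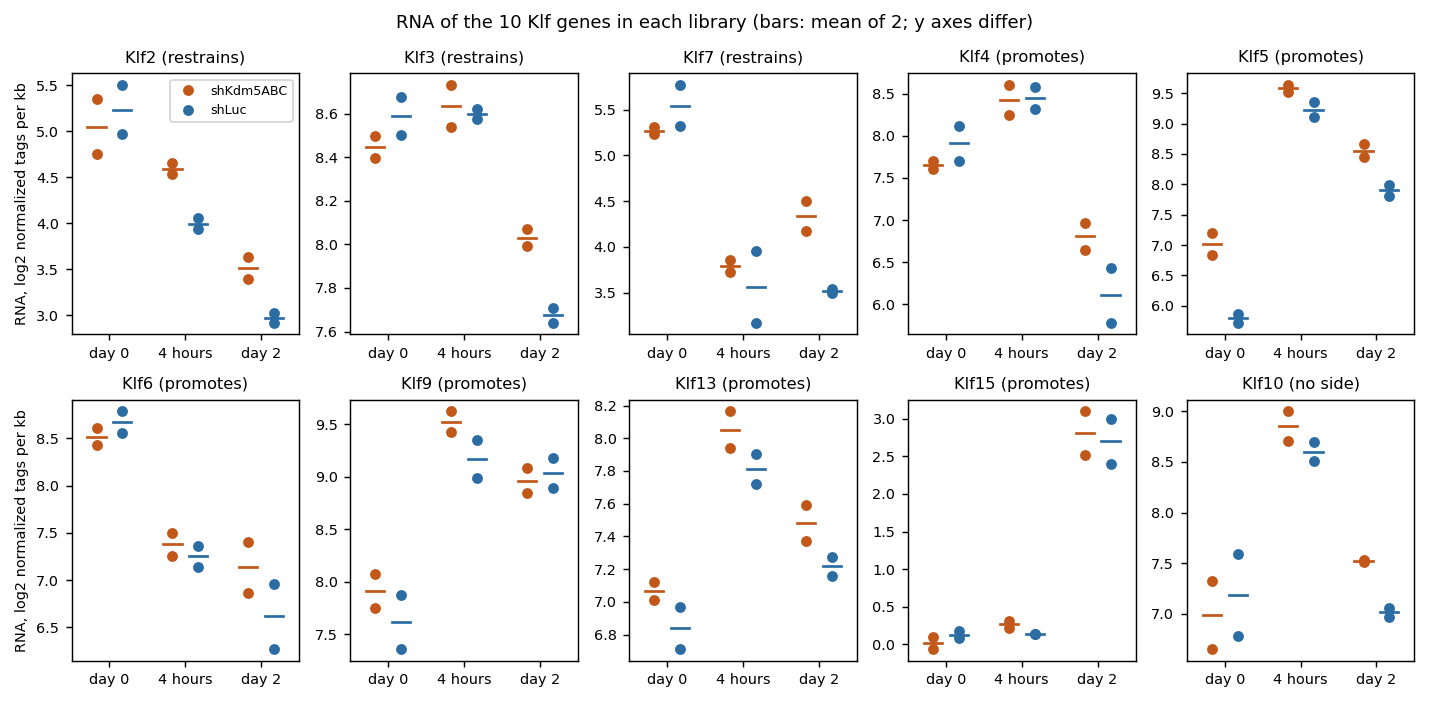
RNA of each Klf gene as log2 normalized tags per kb (y axis, a separate range per panel) at day 0, 4 hours and day 2, with 1 point per library, shKdm5ABC left of shLuc at each time and a bar at the mean of 2. Klf5 and Klf9 stand above day 0 in all later libraries, Klf2 and Klf6 fall below it, and Klf15 leaves its low level of -0.06 to 0.31 at day 2.

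Within 4 hours of induction Klf5, Klf9, Klf13 and Klf10 rose and Klf2, Klf6 and Klf7 fell in shLuc cells. That is 7 of the 10 genes passing the test between 4 hours and day 0 (limma, Benjamini-Hochberg adjusted p under 0.05), 4 higher and 3 lower, where 42.3% of all tested transcripts passed in either direction (20.7% higher, 21.6% lower). Of the 6 promoting members 3 rose, 1 fell and 2 did not pass, with a median difference of 0.75 beside -0.02 over all tested transcripts. Of the 3 restraining members 2 fell and 1 did not pass, with a median of -1.24.

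Klf5 had the largest difference of the 10 genes at 4 hours. Its levels in shLuc cells were 5.73 and 5.86 at day 0, 9.36 and 9.10 at 4 hours and 7.99 and 7.81 at day 2. The 3 times do not overlap. The difference between 4 hours and day 0 was 3.44 (SE 0.15, adjusted p 4.36e-07), or 10.8-fold, and day 2 remained 4.31-fold above day 0 (difference 2.11, SE 0.15, adjusted p 2.61e-06). From 4 hours to day 2 it fell by 1.33 (SE 0.15, adjusted p 5.85e-05).

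Klf9, a direct target of the glucocorticoid receptor, also rose early and, unlike Klf5, did not pass the test between day 2 and 4 hours in shLuc cells. Its levels there were 7.36 and 7.87 at day 0, 9.35 and 8.99 at 4 hours and 8.89 and 9.18 at day 2. Both later times lie above day 0 and overlap each other. It was higher by 1.56 (SE 0.20, adjusted p 0.000237) at 4 hours and by 1.42 (SE 0.20, adjusted p 0.000194) at day 2, and the difference between day 2 and 4 hours was -0.14 (SE 0.20, adjusted p 0.612). All 9 other glucocorticoid targets listed rose at 4 hours in shLuc cells, among them Fkbp5 (3.31, SE 0.17) and Tsc22d3 (3.00, SE 0.16). Over all tested transcripts 20.7% rose. Dexamethasone, insulin, IBMX and serum were given together, so their parts in the Klf9 rise cannot be told apart.

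Klf4 and Klf13 had their highest mean in shLuc cells at 4 hours. Klf4 stood at 7.70 and 8.12 at day 0, 8.58 and 8.32 at 4 hours and 6.43 and 5.78 at day 2 in shLuc cells, so that day 2 lies below both earlier times. The early difference of 0.54 (SE 0.23) missed the threshold (adjusted p 0.0861, and 0.0365 with the replicate number as a block), while day 2 was below day 0 by a log2 difference of -1.81 (SE 0.23, adjusted p 9.63e-05). Cebpb, the gene Klf4 is known to activate, rose by 1.99 (SE 0.16) at 4 hours. Klf13 had 6.71 and 6.97 at day 0, 7.72 and 7.90 at 4 hours and 7.16 and 7.27 at day 2, with no overlap between times. It rose by 0.97 (SE 0.14, adjusted p 0.000522) at 4 hours, and its day 2 excess over day 0 of 0.38 (SE 0.14, adjusted p 0.0484) lost the call on leaving out any of 3 of the 4 libraries compared, with adjusted p up to 0.278 (without day 0 replicate 1, day 2 replicate 1 or day 2 replicate 2). Its fall from 4 hours to day 2 (-0.59, SE 0.14, adjusted p 0.00683) lost the call without 4 hour replicate 2 (-0.50, adjusted p 0.0517).

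Klf6, a promoting member, fell at both times. It had 8.56 and 8.79 at day 0, 7.37 and 7.14 at 4 hours and 6.96 and 6.27 at day 2 in shLuc cells, with no overlap between times. It fell by 1.42 (SE 0.24, adjusted p 0.00105) at 4 hours and by 2.05 (SE 0.24, adjusted p 4.86e-05) at day 2. Dlk1, which Klf6 is known to repress, was not called at 4 hours (0.39, SE 0.26, adjusted p 0.265) and fell by 2.40 (SE 0.26) at day 2.

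Klf15 was the late member. It stood at 0.08 and 0.18 at day 0, 0.14 and 0.13 at 4 hours and 2.40 and 3.00 at day 2 in shLuc cells, and it passed the filter on low values only through its day 2 libraries, so that a difference was bound to appear and no test of it is given. The day 2 mean was 2.57 above that of day 0, a log2 difference which on this scale may understate the fold of so low a gene, since the pseudocount behind the deposited values is not given in the sources used here. Slc2a4, a known Klf15 target, rose by 3.57 (SE 0.40) at day 2, and all 8 adipocyte markers rose with it, their summed levels reaching 34226 to 43777 normalized tags per kb in shLuc cells at day 2, against 2940 to 3637 at day 0. In these bulk samples more adipocyte-like cells and more RNA per cell cannot be told apart.

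Of the restraining members, Klf2 fell stepwise. It had 5.50 and 4.97 at day 0, 4.06 and 3.94 at 4 hours and 3.03 and 2.92 at day 2 in shLuc cells, without overlap between times. It was lower by a log2 difference of -1.24 (SE 0.25, adjusted p 0.00308) at 4 hours and of -2.26 (SE 0.25, adjusted p 3.6e-05) at day 2, when 20.8% of the day 0 level remained.

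Klf7 fell early. Its shLuc libraries had 5.77 and 5.32 at day 0, 3.95 and 3.17 at 4 hours and 3.49 and 3.54 at day 2. It fell by 1.98 (SE 0.27, adjusted p 0.000316) at 4 hours, and day 2 differed from 4 hours by -0.05 (SE 0.27, adjusted p 0.907). Klf3, a repressor that recruits the corepressor CtBP, fell late: its shLuc libraries had 8.50 and 8.68 at day 0, 8.62 and 8.58 at 4 hours and 7.71 and 7.64 at day 2. The early difference was 0.01 (SE 0.11, adjusted p 0.952), and day 2 was lower than day 0 by a log2 difference of -0.91 (SE 0.11, adjusted p 6.94e-05).

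Klf10 rose at 4 hours. It had 6.78 and 7.59 at day 0, 8.51 and 8.70 at 4 hours and 7.06 and 6.97 at day 2 in shLuc cells. The 4 hour level was 1.42 higher (SE 0.26, adjusted p 0.0019), and day 2 overlapped day 0 (difference -0.17, SE 0.26, adjusted p 0.618). Of 12 immediate-early genes, which answer to serum and cAMP within the hour, 8 rose at 4 hours in shLuc cells, including Fos (2.29, SE 0.49) and Junb (2.36, SE 0.52). Over all tested transcripts 20.7% rose, and the parts of the inducers in the Klf10 rise cannot be told apart.

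By day 2, 8 of the 9 members other than Klf15 differed from day 0 in shLuc cells, where 55% of all tested transcripts did (27.1% higher, 27.8% lower). All 3 restraining members were lower, with a median of -2.03, and the promoting members were divided, with Klf5, Klf9 and Klf13 higher and Klf4 and Klf6 lower. Between day 2 and 4 hours 6 of those 9 passed, beside 46.4% of transcripts (22.9% higher, 23.5% lower), and Klf2, Klf3, Klf4, Klf5, Klf10 and Klf13 were all lower. Klf15 is left out of these counts, since the filter let it in through its day 2 libraries. Klf6 stood at the threshold there (-0.63, SE 0.24, adjusted p 0.0515) and passed with the replicate block (0.0252), with a filter of log2 3 (0.0488) and without day 2 replicate 1 (0.00983). The 3 comparisons share libraries, and preadipocyte markers moved with them, 7 of 8 falling at day 2.

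**Figure D2:**
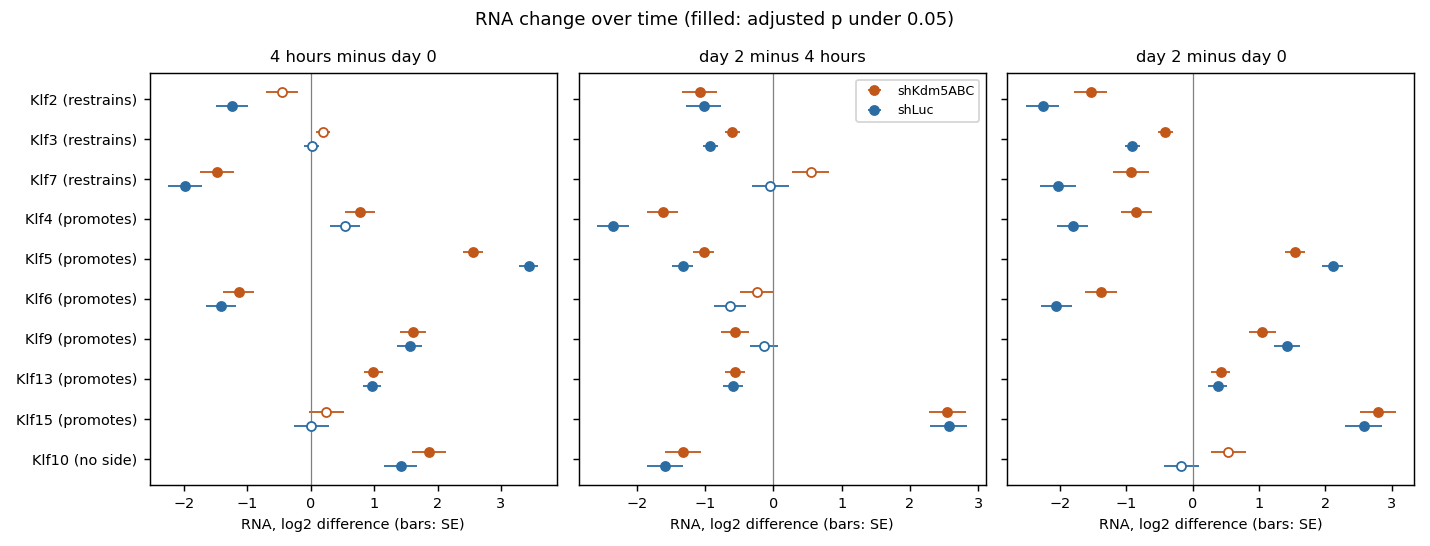
Log2 RNA difference between times (x axis) for each Klf gene (y axis, with its side) in shKdm5ABC cells (upper mark) and shLuc cells (lower mark), bars giving the SE of the fitted difference and filled marks an adjusted p under 0.05. Klf5, Klf9, Klf13 and Klf10 lie right of 0 at 4 hours, Klf2, Klf6 and Klf7 lie left of it, and the Klf15 marks are open at 4 hours (0.25 in shKdm5ABC cells and 0.01 in shLuc cells). The Klf15 marks of the day 2 comparisons are filled, but Klf15 passed the filter only through day 2 libraries. Their fill is therefore not a test result.

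In shKdm5ABC cells the same comparisons gave 7 members at 4 hours against day 0 (5 higher, 2 lower, beside 46.1% of transcripts, 22.4% higher and 23.7% lower) and, with Klf15 left out, 8 of 9 at day 2 against day 0 (3 higher, 5 lower, beside 45.2%, 22% higher and 23.1% lower). Day 2 against 4 hours gave 7 of those 9, all lower (beside 41.2%, 20.4% higher and 20.9% lower). Klf4 passed at 4 hours there (0.77, SE 0.23, adjusted p 0.0201), although it lost the call without day 0 replicate 1 (adjusted p 0.0908), day 0 replicate 2 (0.0565) or 4 hour replicate 1 (0.123). Klf2 did not pass at 4 hours (-0.46, SE 0.25, adjusted p 0.165). Klf9 passed between day 2 and 4 hours (-0.57, SE 0.20, adjusted p 0.0466) and lost that call without any of the 4 libraries (adjusted p 0.0688 to 0.204). In day 2 against day 0, leaving out a library ended calls of Klf3 and Klf4 (day 0 replicate 2, adjusted p 0.0769 and 0.0648, or day 2 replicate 2, 0.0715 and 0.0937), of Klf7 (day 0 replicate 1, 0.0772, day 0 replicate 2, 0.0574, or day 2 replicate 1, 0.0987) and of Klf13 (day 0 replicate 1, 0.162, day 0 replicate 2, 0.0741, or day 2 replicate 2, 0.211). Klf13 also lost its call between day 2 and 4 hours without replicate 2 of 4 hours (0.0782) or replicate 1 of day 2 (0.0724). With the replicate number as a block Klf10 also passed in day 2 against day 0 (0.54, SE 0.26 without the block, adjusted p 0.0292 with it). Whether a time change differs between shKdm5ABC and shLuc cells was tested separately, as the change of the knockdown difference with time.

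Without the replicate block, Klf5 was the 1 member called between shKdm5ABC and shLuc cells, at day 0 and day 2. With that block 5 members, Klf5 among them, were called at day 2. At day 0 Klf5 had 6.84 and 7.19 in shKdm5ABC cells, against 5.73 and 5.86 in shLuc cells. At 4 hours it had 9.52 and 9.63 in shKdm5ABC cells and 9.36 and 9.10 in shLuc cells. At day 2 it had 8.66 and 8.45 in shKdm5ABC cells and 7.99 and 7.81 in shLuc cells. Both shKdm5ABC libraries lay above both shLuc libraries at each time, and how many of all transcripts do so was not counted. The difference was 1.22 at day 0 (SE 0.15, adjusted p 0.00583), 0.35 at 4 hours (SE 0.15, adjusted p 0.364) and 0.65 at day 2 (SE 0.15, adjusted p 0.0282).

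The counts at the single times were low for all transcripts. At day 0, 1 member of 10 was called beside 1.51% of transcripts (0.606% higher), at 4 hours 0 beside 1.44%, and at day 2 1 beside 9% (5.66% higher), by limma. At 4 hours limma gave 195 called transcripts and 1807 with an unadjusted p under 0.05, with Klf2 (0.60, SE 0.25) and Klf5 among those 1807. The Klf5 call at day 0 was lost without replicate 2 of shLuc (difference 1.29, adjusted p 0.0583) or of shKdm5ABC (1.05, adjusted p 0.0517). At day 2 it was lost without shLuc replicate 1 (0.74, adjusted p 0.0678), shLuc replicate 2 (0.56, adjusted p 0.169) or shKdm5ABC replicate 1 (0.55, adjusted p 0.199). Fitted on the compared groups alone, neither Klf5 call held (adjusted p 0.0936 and 0.108). Adipocyte markers summed to 2744 and 4816 in the shKdm5ABC libraries at day 0 and 2940 and 3637 in the shLuc libraries, with replicate 2 of shKdm5ABC the highest. The macrophage marker Cd68 stood at 5.93 and 5.76 in shKdm5ABC cells at day 0, against 4.45 and 4.25 in shLuc cells, and was called higher at day 0 (adjusted p 0.0144) and at 4 hours (a difference of 1.28, SE 0.24, adjusted p 0.0334). Csf1r and Lyz2 were not called at any time, and 3 of the 6 listed macrophage markers, Adgre1, Ptprc and Itgam, were below the filter. All 6 together summed to 111 and 105 normalized tags per kb in shKdm5ABC cells and 54.8 and 61.5 in shLuc cells. The part of these markers in the Klf5 result was not tested.

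At day 2 the other members pointed mostly the same way. The median difference over the 10 genes was 0.51, beside -0.00 over all tested transcripts, and Klf9 (-0.07, SE 0.20) was the lone negative value. Klf7 had 4.18 and 4.50 in shKdm5ABC cells, against 3.49 and 3.54 in shLuc cells (0.82, SE 0.27, adjusted p 0.088). Klf4 had 6.97 and 6.64 in shKdm5ABC cells and 6.43 and 5.78 in shLuc cells (0.70, SE 0.23, adjusted p 0.0903). Klf3 had 8.07 and 7.99 in shKdm5ABC cells and 7.71 and 7.64 in shLuc cells (0.36, SE 0.11, adjusted p 0.0763). In each of these the groups do not overlap and the adjusted p, without the replicate block, misses the threshold. With 2 libraries per group the lack of overlap carries little weight, since an exact permutation test cannot go below 0.333. How many of all transcripts do not overlap was not counted.

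Same-numbered libraries deviated together in the RNA, and with the replicate number as a block 5 members were called at day 2, beside 28.1% of transcripts: Klf3 (adjusted p 0.0147), Klf4 (0.0239), Klf5 (0.00601), Klf7 (0.028) and Klf13 (0.0356), all higher in shKdm5ABC cells. The preadipocyte markers summed to 17112 and 14200 in shKdm5ABC cells at day 2 and to 12630 and 11673 in shLuc cells, and the adipocyte markers to 18840 and 32411 in shKdm5ABC cells and to 34226 and 43777 in shLuc cells. None of the 8 adipocyte markers was called between the groups at day 2, Pdgfra was the 1 preadipocyte marker called, and their part in the Klf values was not tested.

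**Figure D3:**
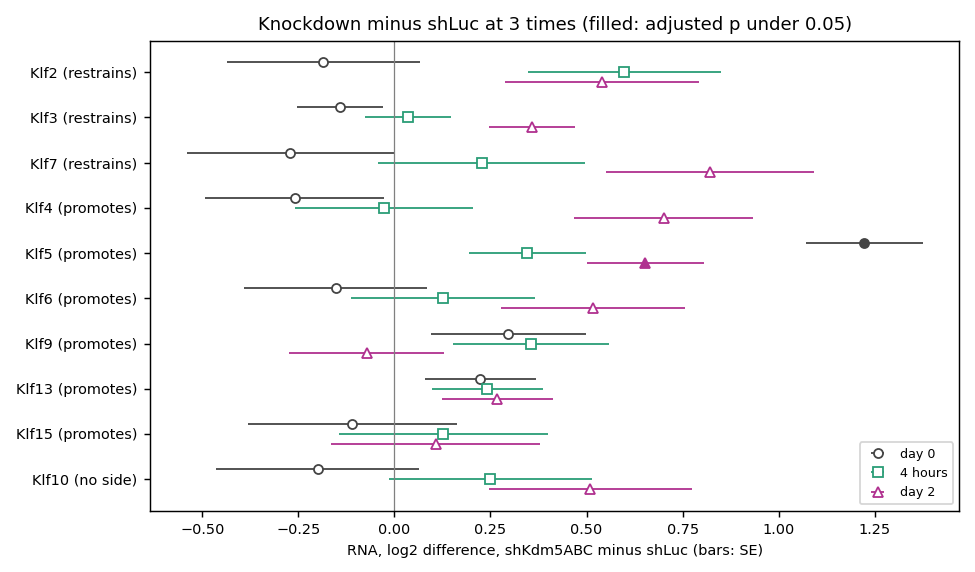
Log2 RNA difference, shKdm5ABC minus shLuc (x axis), for each Klf gene (y axis) at day 0, 4 hours and day 2, with SE bars, and filled marks where the adjusted p is under 0.05 in the fit without the replicate block. Klf5 has the 2 filled marks, 1.22 at day 0 and 0.65 at day 2, and at day 2 all members but Klf9 lie right of 0.

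Whether the knockdown difference changed with time was tested for each member, and Klf3 was called in 1 of the fits, that with the replicate block. For day 2 against day 0 the test of that change called 0 of 10 members with limma without the block (0.31% of transcripts, 42 in all, and 1617 with an unadjusted p under 0.05). The values with an unadjusted p under 0.05 were 1.09 for Klf7 (SE 0.38), 0.96 for Klf4 (SE 0.33), 0.50 for Klf3 (SE 0.16) and -0.57 for Klf5 (SE 0.21). With the replicate block Klf3 passed (0.50, adjusted p 0.0419), beside 7.67% of transcripts. For 4 hours against day 0 limma called 0 members and 0% of transcripts, with 501 at an unadjusted p under 0.05. Klf5 was among those (-0.88, SE 0.21, unadjusted p 0.00219, adjusted p 0.9999). In the separate fit with the replicate block its adjusted p was 0.17.

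The other genes of the zinc finger family were followed as lists. Of 7 further Klf genes 3 were tested, and in shLuc cells at 4 hours Klf12 (-1.42, SE 0.19) and Klf11 (-1.85, SE 0.34) fell while Klf16 was not called (0.24, SE 0.17). Of 9 Sp genes, the relatives that bind GC boxes, 4 were tested, and Sp1, Sp2, Sp3 and Sp4 all fell at 4 hours, by 0.72 (Sp3) to 1.19 (Sp2). At day 2 none of the 4 was called against day 0, with an unadjusted p above 0.05 in each. None of these 7 genes was called between shKdm5ABC and shLuc cells at any time, and 2 values had an unadjusted p under 0.05, Klf12 at day 2 (0.48, SE 0.19) and Klf16 at 4 hours (-0.42, SE 0.17).

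The known targets and partners of the family were followed as a list of 12. In shLuc cells 4 rose at 4 hours (Cebpb, Cebpd, Ctbp2 and Fbxw7) and none fell, with a median of 0.39. At day 2, 7 rose, among them Cebpa (4.12, SE 0.22) and Pparg (2.71, SE 0.32), and 2 fell, Dlk1 and the corepressor gene Ctbp2 (-0.63, SE 0.18). Between shKdm5ABC and shLuc cells Cebpa was higher at day 0 (1.09, SE 0.22, adjusted p 0.0466), and Ctbp1, which encodes a partner of Klf3, was lower at all 3 times, by a log2 difference of -0.50 (SE 0.10, adjusted p 0.0466) at day 0 and -0.48 (SE 0.10, adjusted p 0.0202) at day 2. Pparg was not called at day 0 (0.37, SE 0.32) or day 2 (-0.71, SE 0.32).

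The transcripts most like 4 of the members over the 12 libraries were found by Pearson correlation among 11691 transcripts, as a description. Klf5 was most like Tle1 (0.991), Ucp2 (0.988) and Id1 (0.986). Klf15 was most like Alad (0.992), Adig (0.988) and Rtn4ip1 (0.986), Klf3 like Myh9 (0.992), Flrt2 (0.983) and Timp2 (0.981), and Klf4 like Plcd1 (0.981), Fstl1 (0.980) and Rin1 (0.979). The 12 points fall into 3 times, which any transcript with a strong time course shares.

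All members except Klf15 carried an H3K4me3 peak over the start site, 1 each. The Klf9 peak (mm9, chr19:23213873-23220012) averaged 2323 normalized tags and ranked 86th of 10702, and the Klf4 peak (chr4:55540795-55547147) averaged 1656 tags. The lowest was that of Klf2 (chr8:74841221-74845072), at 661 tags and rank 4955, and no peak in this table was annotated to Klf15. Peak width ran from 3233 bp at Klf3 to 6352 bp at Klf4.

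The H3K4me3 level differed between column groups at 5 of the 9 promoters, Klf2, Klf4, Klf5, Klf7 and Klf9 (limma F test over the 6 groups, beside 43.8% of all peaks), and at 8 with the replicate block (beside 78.4%). Klf4 had 2443 and 2052 tags in the KDM5_KD_D0 columns, 1287 and 1578 in Control_D0, 876 and 1018 in KDM5_KD_4h, 1813 and 2135 in Control_4h, 1561 and 1665 in KDM5_KD_D2 and 1730 and 1712 in Control_D2. The KDM5_KD_4h columns were the lowest, below every other column. Klf2 had 1006 and 1035 tags in KDM5_KD_D0, 446 and 562 in Control_D0, 321 and 444 in KDM5_KD_4h, 668 and 1024 in Control_4h, 601 and 819 in KDM5_KD_D2 and 449 and 559 in Control_D2. Its mean was 2.67 times higher in KDM5_KD_D0 than in KDM5_KD_4h, and that of Klf4 was 2.37 times higher.

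Klf5 had its highest mean in KDM5_KD_D2 (1336 ± 82.5 tags, SD, n = 2) and its lowest in Control_D0 (725 ± 184), and Klf9 likewise (2677 ± 174 and 1823 ± 39.3). Klf7 was highest in Control_4h (1520 ± 82.3) and lowest in KDM5_KD_4h (909 ± 121). Klf3 varied least, its highest and lowest means differing by 1.14 times.

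**Figure D4:**
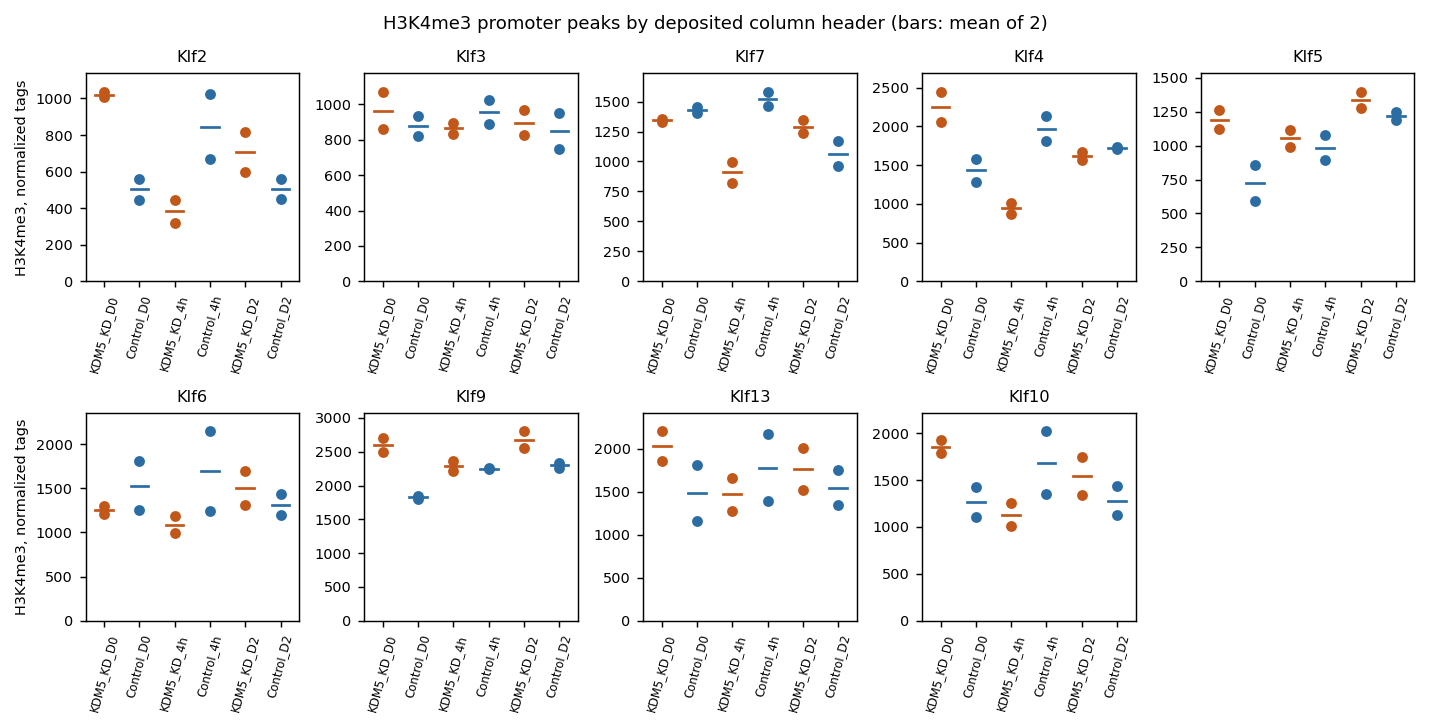
Normalized H3K4me3 tags (y axis, from 0, a separate range per panel) in the promoter peak of each Klf gene, with 1 point per library and a bar at the mean of 2, by deposited column header (x axis). The Klf4 and Klf2 points are lowest in KDM5_KD_4h and the Klf5 and Klf9 points in Control_D0.

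Among pairs of column groups, KDM5_KD_4h against Control_4h gave 3 members, all lower, beside 35.9% of peaks (34.3% lower). The log2 differences were -1.06 for Klf4 (SE 0.14, adjusted p 0.000229), -1.13 for Klf2 (SE 0.24, adjusted p 0.00457) and -0.75 for Klf7 (SE 0.12, adjusted p 0.000921). No single library decided these 3 calls, and with each library centred on its median they remained, at -0.82, -0.89 and -0.51. Centring added Klf9, higher (0.26, SE 0.09, adjusted p 0.0413), and gave 990 higher and 2488 lower peaks in this pair, in place of 173 and 3666. The centring matters because the whole scale moved between these columns: the median over all peaks was shifted by -0.23 for KDM5_KD_4h against Control_4h, by 0.28 for Control_4h against Control_D0 and by 0.29 for KDM5_KD_D0 against Control_D0.

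Each of the other pairs with calls lost 1 or more of them without one or another library. KDM5_KD_D0 against Control_D0 gave 4 members, all higher, Klf2, Klf4, Klf5 and Klf9, beside 32.9% of peaks (32.7% higher), and 0 after centring. The share of all peaks called after centring is not given here, so nothing about the members is read from that 0. Of these, Klf9 (0.51, SE 0.09, adjusted p 0.00285) kept its call without each library in turn, while the others lost it without Control_D0 replicate 1 (adjusted p 0.0607 to 0.0853) and without 1 or more of the KDM5_KD_D0 libraries (0.0532 to 0.0593). KDM5_KD_D2 against KDM5_KD_4h gave 3 members, all higher, beside 29.6%, nearly all of them higher too. Klf4 (0.77, SE 0.14, adjusted p 0.00223) held there, and Klf2 and Klf7 lost the call without KDM5_KD_4h replicate 1 (0.154 and 0.0971) or KDM5_KD_D2 replicate 2 (0.147 and 0.0777).

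KDM5_KD_4h against Control_D0 gave 4 members, Klf5 and Klf9 higher and Klf4 and Klf7 lower, beside 15.6%, and without a single library the count was 0 to 2. Control_4h against Control_D0 gave 2, Klf4 and Klf9, both higher, beside 27.9%, KDM5_KD_D0 against Control_D2 gave Klf2, higher, beside 33.1%, and Control_D2 against Control_D0 gave Klf5, higher, beside 1.97%. The calls of these 3 pairs were lost without one or another library. The shares of all peaks called without a library are not given here, so nothing about the members is read from such counts. KDM5_KD_D2 against Control_D2 gave 0 members by limma and by edgeR, beside 24% of peaks by limma, with 3892 peaks at an unadjusted p under 0.05, and 4 with the replicate block (beside 53.1%).

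KDM5A, a demethylase of the family knocked down here, was recovered at the promoters of 9 members at 9.25 (Klf7) to 18.4 (Klf3) times the input, as the mean over the 6 libraries. Klf9 had the most, with 608 and 307 normalized tags at day 0, 518 and 364 at 4 hours and 574 and 534 at day 2, against 44.1 in the input. The times overlap. Klf9 exceeded 93.7% of the 12751 promoter peaks in the table, Klf13 exceeded 90.1%, and Klf10 and Klf7 exceeded 78.8% and 75.6%. Klf5 had 277 and 160 tags at day 0, 256 and 101 at 4 hours and 272 and 205 at day 2, against 13.5 in the input. The Klf5 and Klf2 promoters exceeded 63.3% and 54.1% of promoter peaks, and Klf3 exceeded 30.2%. These percentages rank tags summed over each peak, not divided by its width. The peak was 6825 bp wide at Klf13, 4927 bp at Klf9, 1788 bp at Klf2 and 1631 bp at Klf3. The percentages therefore do not compare KDM5A per base, which was not tested. Klf3, the lowest of these 9 members by tags, had the highest ratio to input. Its input was 3.6 tags, where 1 read is worth 0.900 tags, so that ratio rests on few input reads.

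Klf15 stood apart at the low end, as in RNA and H3K4me3. Its promoter peak (mm9, chr6:90412957-90413457) had 4.88 and 3.41 tags at day 0, 4.19 and 10.3 at 4 hours and 11.4 and 4.64 at day 2, against 0.9 in the input, from 4 to 6 reads per library. The times overlap.

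**Figure D5:**
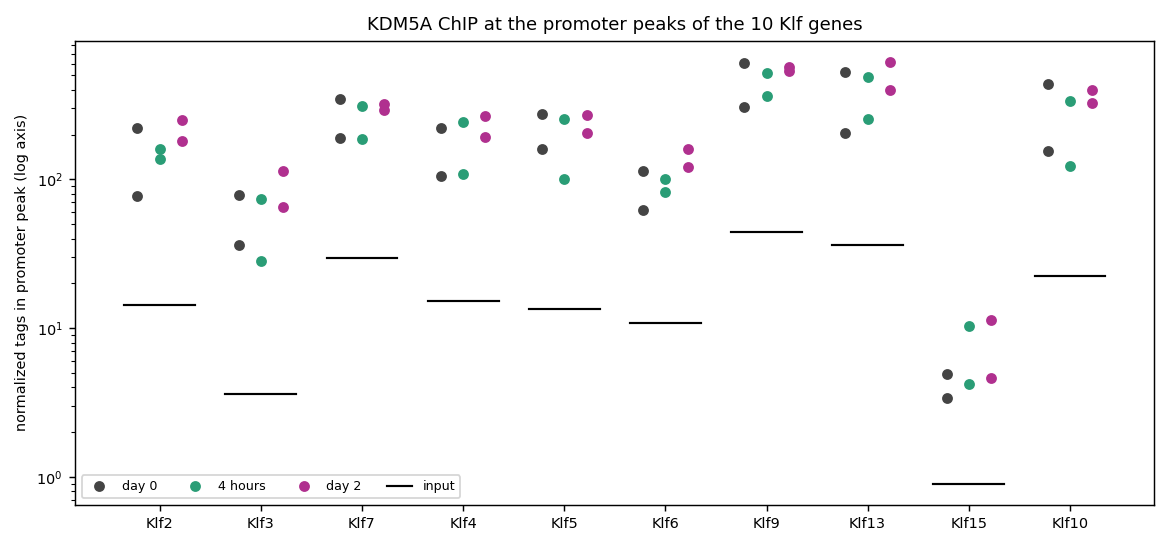
Normalized KDM5A ChIP tags in the promoter peak of each Klf gene (y axis, log scale), with 1 point per library at day 0, 4 hours and day 2 and a line at the input. Klf9 and Klf13 are highest, Klf15 is lowest, at 3.41 to 11.4 tags, and the lower day 0 point is replicate 2. Tags are summed over each peak, from 500 bp wide at Klf15 to 6825 bp at Klf13.

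No change of KDM5A with time was called at any member. Of the 10 promoter peaks limma called 0 and edgeR on recovered reads called 0 in each comparison, beside 0.0606% of all peaks for 4 hours against day 0, 0.173% for day 2 against day 0 and 0.607% for day 2 against 4 hours. Over all 148 member peaks limma also called 0, with 10, 13 and 23 at an unadjusted p under 0.05. The median difference of the member promoters between day 2 and day 0 was 0.57, beside 0.37 over all peaks, and 0.03 beside -0.17 with each library centred. That median rests on single libraries: it was -0.08 without replicate 2 of day 0, 1.12 without replicate 1 of day 0, 0.31 without replicate 1 of day 2 and 0.85 without replicate 2 of day 2, so no direction is drawn from it. Replicate 2 of day 0 had the fewest tags in peaks, 1939809 against 2684770 to 4249636 in the other 5 libraries. Its recovered total was nevertheless the largest of the KDM5A libraries, at 17601432 reads if tags were scaled to 10000000 per library. The standard errors at the promoters, 0.57 to 0.96 on the log2 scale, leave changes of that size undetectable with 2 libraries per time.

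Away from the start sites, Klf15 carried KDM5A peaks with more tags than that at its promoter. Klf3 did too, with a mean of 90.1 tags 8826 bp downstream of its start against 66.1 at its promoter. The peak 4917 bp downstream of the Klf15 start (chr6:90416657-90418417) had 7.80 and 6.82 tags at day 0, 10.1 and 7.75 at 4 hours and 54.5 and 33.2 at day 2, against 2.7 in the input. Both day 2 libraries lie above the other 4. The difference between day 2 and day 0 was 2.39 (SE 0.68, unadjusted p 0.00047, adjusted p 0.118). This peak is named because of its values, rests on 3 to 43 reads per library, and its adjusted p misses the threshold. A peak 38598 bp downstream had 23.4 and 13.6 tags at day 0, 46.9 and 36.2 at 4 hours and 54.5 and 56.4 at day 2 (day 2 against day 0, 1.58, SE 0.58, adjusted p 0.409). Higher day 2 tags were not particular to Klf15. A peak at -18278 bp from the Klf13 start had 3.90 and 4.55 tags at day 0 and 43.1 and 23.2 at day 2. How many other member peaks do so was not counted.

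KDM5C was profiled at day 2 alone, in 2 libraries with no time or control group to test against. Of its 38 peaks at the members, 19 overlapped a KDM5A peak. The share over all 14827 KDM5C peaks was not counted, so nothing is read from that number. The promoters of Klf3, Klf4, Klf5, Klf9 and Klf10 held a peak, led by Klf10 with 37.3 and 25.8 tags against 2.7 in the input. These promoter peaks rest on few reads in the 2 libraries. The reads were 2 and 10 at Klf3, 5 and 9 at Klf4, and 8 and 10 at Klf5. At Klf9 they were 7 and 6, and at Klf10 11 and 21. No KDM5C peak within 1000 bp of the start was listed for Klf2, Klf6, Klf7, Klf13 or Klf15. The largest member peak lay not at a promoter but upstream of it, at -5361 bp from the Klf9 start (chr19:23209286-23211424), with 292 and 130 tags against 17.1 in the input, which ranked 11th of 14827. KDM5A was also found there, with 213 and 169 tags at day 2 in the overlapping peak (chr19:23209107-23211014). The 1 KDM5C peak of Klf15 that averaged over 20 tags lay 39096 bp downstream of its start, with 44.1 and 18.5 tags against 4.5 in the input.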

How the data were processed

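RNA (12 libraries), H3K4me3 ChIP (12), KDM5A ChIP (6) and KDM5C ChIP (2) of 3T3-L1 cells were used; the input sequenced with the ChIP served as the background, and a second input library was not analysed here. RNA values were deposited by the authors as log2 normalized tags per kb of transcript, with a pseudocount and size factors not given in the sources used here, so RNA depth is unknown. ChIP values were deposited as signal, that is, normalized tags per peak, each a whole multiple (within 0.1) of what 1 read is worth, from which the counts behind the deposited values were recovered. Recovered library totals were 8374548 to 13588720 reads (H3K4me3), 3870724 to 17601432 (KDM5A) and 2946691 and 8128249 (KDM5C), if tags were scaled to 10000000 per library. Per the submitters' processing notes, builds and tools include mm9, Bowtie2 0.12.8 (as written there), Subread, DESeq2, STAR and HOMER; coordinates of peaks are mm9. Chromatin for ChIP was cross-linked with disuccinimidyl glutarate and formaldehyde.

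RNA rows were named from a RefSeq gene table (17253 of 17515) or the peak tables (144), and 118 kept their ID. Transcripts with log2 of at least 1 in 2 libraries (13534) and all peaks, as log2(tags + 1), were each fitted by group with limma 3.58.1 in R 4.3.3, with an intensity trend and Benjamini-Hochberg adjustment over the whole table, and the fits were tested on simulated data. With 2 libraries per group an exact permutation test cannot go below 0.333. edgeR 4.0.16 on recovered reads was the other tool for ChIP. Other alternatives were the replicate number as a block, each library left out, median centring, other filters and pseudocounts, no trend and the compared groups alone. Deviations of same-numbered libraries correlated at 0.381 to 0.657 over 15 pairs of RNA groups and 0.504 to 0.790 over 15 of H3K4me3, so numbers pair them; in KDM5A 1 of 3 pairs passed 0.1. Peaks within 1000 bp of a start count as promoter peaks. All 10 members are named; other genes come from lists of fixed membership, and likeness is the 3 highest Pearson correlations. The members and lists were chosen with earlier results of these data known.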

Additional observations from a re-analysis of the deposited data

How the results depend on the processing

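Of 49 member RNA values that passed, 4 of them Klf15 values that the filter favours, all 49 kept direction and call with median centring, a filter of log2 3 or the replicate block, 47 without a filter, 46 without a trend and 45 with the compared groups alone. With 1 library left out, 168 of 196 did. Of 18 called H3K4me3 pair values, 18 held with 20 tags, a pseudocount of 5 or the block, 16 with edgeR, 15 without a trend, 12 with the compared groups alone and 8 with centring. With 1 library left out, 39 of 72 did. No value changed sign. Values not called at first were not followed one by one.

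With the compared groups alone, shKdm5ABC against shLuc gave 0 members at day 0 and 0 at day 2, beside 11 and 25 of 13534 transcripts. With the replicate block, day 2 gave 5, its change from day 0 gave 1, and H3K4me3 gave 8 for any difference, 6 for Control_4h and 3 for Control_D2 against Control_D0, 7 for KDM5_KD_D0 and 4 for KDM5_KD_D2 against Control_D2, 6 for KDM5_KD_4h against Control_4h and 8 for KDM5_KD_D2 against KDM5_KD_4h. The compared groups alone gave 0 for Control_4h, 0 for Control_D2 and 1 for KDM5_KD_4h against Control_D0, and 2 for KDM5_KD_D0 against Control_D2. No trend gave 0 for Control_D2 and 2 for KDM5_KD_4h against Control_D0, and edgeR gave 0 for Control_D2 against Control_D0. Centring gave 0 for Control_4h and KDM5_KD_D0 against Control_D0, 0 for KDM5_KD_D0 against Control_D2, 1 for KDM5_KD_D2 against KDM5_KD_4h and 4, 1 of them higher, for KDM5_KD_4h against Control_4h (3, all lower, without it). Leaving out single libraries gave 0 to 1 member for shKdm5ABC against shLuc at day 0 and at day 2, 0 to 2 for Control_4h, 0 to 1 for Control_D2, 0 to 2 for KDM5_KD_4h and 1 to 4 for KDM5_KD_D0 against Control_D0, 0 to 2 for KDM5_KD_D0 against Control_D2, and 1 to 3 for KDM5_KD_D2 against KDM5_KD_4h. The block raised the calls over all H3K4me3 peaks as well. They went from 43.8% to 78.4% for any difference and from 24% to 53.1% for KDM5_KD_D2 against Control_D2. Where no share over all features is given here or above, nothing about the members is read from a count. The cause of the differences between settings was not tested.

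With 2 libraries a group the RNA precision rests on a spread shared by all groups, and RNA depth is unknown. In KDM5A the Klf15 promoter rests on 4 to 6 reads a library, and the KDM5C promoter peaks of the members also rest on few reads. The titles number replicates as experiments without saying that their cultures were separate, and H3K4me3 is read by header only.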
